A study of Mus musculus with 24 samples.

Results

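miR-210 was read by 1 TaqMan assay, mmu-miR-210 on card A, out of 584 microRNA assays on 2 cards (375 on card A and 209 on card B). It was picked out by its assay name, with earlier results of these data known, and it gave a cycle threshold (Ct) in all 12 animals, from 1 well each. The Ct counts the PCR cycles needed for the probe's fluorescence to reach a set level, and each cycle fewer stands for about a doubling of the starting template. The animals were male mice of 12 weeks, and the tissue was the soleus, a postural calf muscle rich in slow fibres. The study set 2 transgenic lines against their own littermates, with 3 mice per group. MCK-PPARa mice overexpress PPARα, MCK-PPARb mice overexpress PPARβ, and both transgenes are muscle-specific, MCK being the promoter of muscle creatine kinase. Their non-transgenic littermates, labelled wild-type, are called NTGa and NTGb and are kept apart throughout. Neither the strain of the lines nor any pooling of animals is given in the sources used here, and nothing in them says whether a line came from 1 founder.

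miR-210 is the microRNA most closely tied to low oxygen. Its gene is switched on by hypoxia-inducible factor, and among its best known targets is Iscu, a scaffold for the iron-sulfur clusters that mitochondrial respiratory enzymes need. The transgenes encode lipid-sensing nuclear receptors, which in muscle raise the transcription of genes for fatty acid uptake and oxidation, a mitochondrial process that consumes oxygen.

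The assay name without an arm is the older name of the 3p strand. The RefSeq table (GRCm38.p6) places Mir210 on the minus strand at chr7:141221384-141221493, where no other gene of that table overlaps it; the nearest are Rassf7 and Gm51460. The hairpin is shown with the 3p strand in capitals. The strands are shown with the seed, bases 2 to 8, in capitals, because the seed is the part by which a microRNA finds its targets.
Mir210 hairpin: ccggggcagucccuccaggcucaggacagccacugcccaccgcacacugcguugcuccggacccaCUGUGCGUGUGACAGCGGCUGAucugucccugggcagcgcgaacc
miR-210-3p, chr7:141221407-141221428: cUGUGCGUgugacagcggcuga
miR-210-5p, chr7:141221445-141221466: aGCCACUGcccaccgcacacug
Of 1679 mature names in the table, 1 had the seed of miR-210-3p, miR-210-3p itself, so no other mature microRNA listed there shares its seed. That seed holds a CG pair, as did 13.0% of seeds in the table. The 5p strand had no assay among those read.

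miR-210 was a low-abundance microRNA of the soleus. Its mean Ct of 31.2 was the 125th lowest of the 149 microRNAs of card A detected in every animal, where detected means a Ct under 35. Such an order compares assays whose efficiencies may differ. miR-1, which marks striated muscle, had a Ct of 20.5 to 21.3 in the same mice. Whether a lower level in a whole muscle reflects fewer cells that make miR-210 or less of it per cell cannot be told apart.

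The Ct of miR-210 was 31.7, 30.9 and 33.4 in NTGa replicates 1, 2 and 3. It was 31.4, 32.2 and 30.6 in MCK-PPARa replicates 1, 2 and 3. NTGa replicate 3 had the least miR-210 of the 12 mice, and the MCK-PPARa values lay within the span of the NTGa values except for 1 mouse with more. In NTGb the Ct was 30.8, 30.2 and 30.7, and in MCK-PPARb it was 30.4, 30.9 and 31.4. These 6 mice lay closer together, and their groups overlapped.

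To compare animals, each Ct was subtracted from the mean Ct of the 149 microRNAs of card A detected in all 12 mice, which gives a level on the log2 scale. The level of miR-210 was -3.94, -3.26 and -5.43 in NTGa and -3.39, -4.23 and -2.73 in MCK-PPARa. It was -2.42, -2.66 and -2.24 in NTGb and -2.33, -2.90 and -3.26 in MCK-PPARb. Ordered by mean level, NTGb came first (-2.44 ± 0.211, SD, n = 3), then MCK-PPARb (-2.83 ± 0.468), MCK-PPARa (-3.45 ± 0.752) and NTGa (-4.21 ± 1.11). No neighbours in this order differed beyond their spread, and the transgenic groups lay between the control groups.

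**Figure D1:**
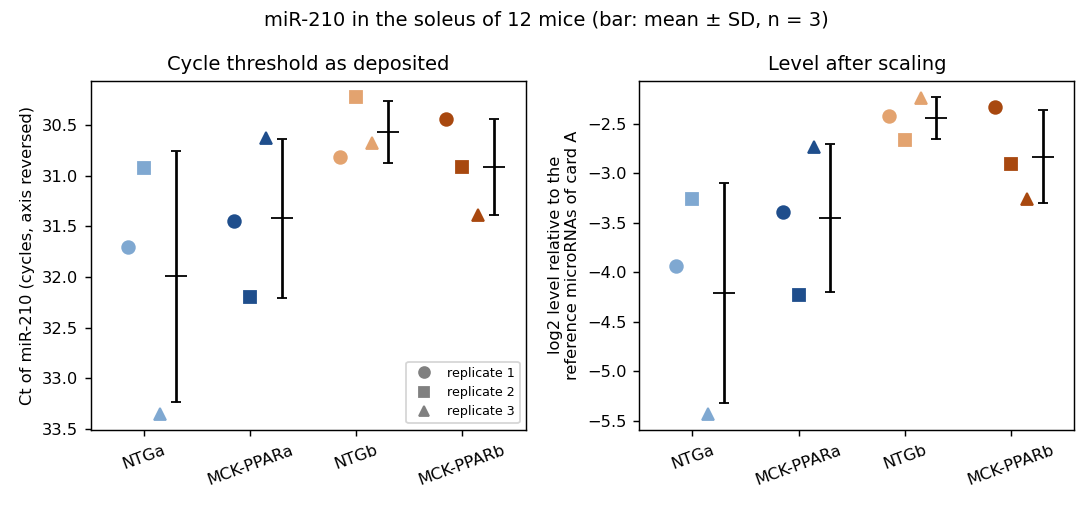
Ct of miR-210 (left, in cycles, axis reversed so that more template is higher) and its log2 level (right) in each mouse of the 4 groups, with the replicate number as symbol and the mean ± SD (n = 3) as bar. NTGa replicate 3 lies lowest in both panels, at Ct 33.4 and a level of -5.43, and the NTGb mice lie above all NTGa mice.

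In MCK-PPARa soleus, the mean level of miR-210 was 1.69 times that of NTGa, with a 95% interval from 0.746 to 3.83. On the log2 scale the difference was 0.76 (SE 0.53), which did not pass (limma adjusted p = 0.55). In that comparison 2.24% of the 268 tested microRNAs passed at an adjusted p under 0.05. The exact permutation test of the levels gave p = 0.5, where 3 animals against 3 cannot go below 0.1. The size rested on NTGa replicate 3, without which the difference was 0.11. It was 1.23 without NTGa replicate 2, 1.14 without MCK-PPARa replicate 2 and 0.39 without MCK-PPARa replicate 3. At a detection limit of Ct 32 it was 0.23. Under that limit NTGa replicate 3 (Ct 33.4) and MCK-PPARa replicate 2 (Ct 32.2) count as not detected and are set to a floor. NTGa replicate 1 (Ct 31.7) counts as detected, but its level of -3.94 lay below that floor and is set to it too.

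In MCK-PPARb soleus, the mean level of miR-210 was 1.31-fold below that of NTGb. The log2 difference was -0.39 (SE 0.53, 95% interval -1.57 to 0.79; limma adjusted p = 0.872), with 2 of 3 transgenic mice below every control. No microRNA passed in that comparison (limma, 0% of 268), where 8.58% had an unadjusted p under 0.05. The exact permutation test gave p = 0.3. Without MCK-PPARb replicate 3 the difference was -0.18, and without MCK-PPARb replicate 1 it was -0.63. With U6 snRNA as reference it was -0.079.

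The direct test of whether miR-210 responded differently to the transgenes did not pass either. The effects differed by 1.15 (SE 0.76, 95% interval -0.52 to 2.82; limma adjusted p = 0.58), and by 0.49 without NTGa replicate 3. In that test 1.12% of the 268 microRNAs passed. The mean of both effects was 0.18 (SE 0.38, 95% interval -0.65 to 1.02; adjusted p = 0.821), where 2.24% passed. Between the transgenic groups, the level in MCK-PPARa minus that in MCK-PPARb was -0.62 (SE 0.53, 95% interval -1.80 to 0.56; adjusted p = 0.577), where 2.99% passed. With 3 mice a group the intervals were wide, that of MCK-PPARa reaching a 3.83-fold rise and that of MCK-PPARb a fall to 0.336 of the control level.

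The widest gap between groups lay between the controls. NTGa held 3.41-fold less miR-210 than NTGb, a log2 difference of -1.77 (SE 0.53, 95% interval -2.95 to -0.59). After adjustment over 268 microRNAs it did not pass (limma adjusted p = 0.122), and 1.87% of them did. All 3 NTGa mice were below all 3 NTGb mice (exact permutation p = 0.1, the smallest possible), as control groups did not overlap for 19.4% of the tested microRNAs. Without NTGa replicate 3 the difference was -1.11 (adjusted p = 0.376). At a limit of Ct 32, which sets NTGa replicates 1 and 3 to the same floor, it was -1.02 (adjusted p = 0.107). Over the alternatives the sign of the difference held throughout and the adjusted p ran from 0.0542 to 0.376.

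The sign of each transgene effect turned with the control group chosen. Set against NTGb, MCK-PPARa lay at -1.01 (adjusted p = 0.268). Set against NTGa, MCK-PPARb lay at 1.38 (adjusted p = 0.249). Against all 6 non-transgenic mice, the values were -0.13 and 0.49. A comparison of all 6 mice of line a (NTGa and MCK-PPARa) with all 6 of line b was added after these values were seen. It gave -1.20 (SE 0.38, 95% interval -2.03 to -0.36, limma adjusted p = 0.104). At a limit of Ct 32, which sets the lowest mice of line a to a floor, it gave -0.71. How the lines differed in breeding or handling is not given in the sources used here, so line and any such factor cannot be told apart.

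**Figure D2:**
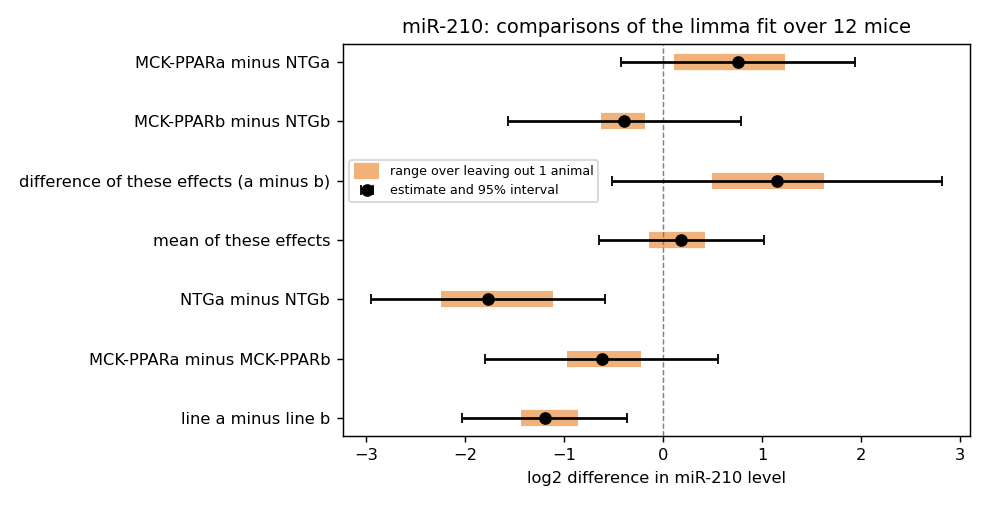
Log2 differences in miR-210 level (x axis) for 7 comparisons of the limma fit over 12 mice, with the 95% interval as line and, as orange bar, the range of the estimate when 1 animal is left out. The intervals of MCK-PPARa minus NTGa (0.76) and MCK-PPARb minus NTGb (-0.39) cross 0, while those of NTGa minus NTGb (-1.77) and line a minus line b (-1.20) do not, although neither passed after adjustment.

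Markers of cell types were set beside the gap between the controls, as the log2 of the summed levels of each list. Such a sum mostly follows the most abundant members of a list. The smooth muscle and fibroblast list (4 of 4 tested) spanned 5.30 to 5.35 in NTGa and 5.03 to 5.09 in NTGb, without overlap. Its sum lay in the opposite direction to miR-210, but its members did not all do so. NTGa minus NTGb was 0.41 for miR-143, 0.41 for miR-145 and 0.19 for miR-199a-3p, but -0.84 for miR-214, and none passed. The endothelial list (2 of 2) spanned 8.95 to 9.15 and 8.34 to 9.43, and the leukocyte list (3 of 4) 4.34 to 4.86 and 4.15 to 4.91. The erythroid list, of which 1 of 2 could be tested, miR-451, spanned -1.61 to -0.98 and -2.04 to -1.31. The skeletal muscle list (7 of 7) spanned 11.4 to 11.6 and 11.2 to 12.2. Taken singly, 6 of its 7 members were lower in NTGa and 1 was higher, where 48.1% of all tested microRNAs were higher. The 6 lower members included miR-486 at only -0.025. At an unadjusted limma p under 0.05, 3 of the 7 differed and all 3 were lower, where 15.7% of all tested microRNAs differed in either direction. Among these 3 was miR-208b, detected in 9 of 12 mice, with an NTGa value of -6.48 beside the floor of -6.56. None of the 7 passed after adjustment. The sums of these lists overlapped between the controls except for the smooth muscle and fibroblast list. The part of the lists in the result was not tested. The mean Ct of the reference microRNAs was 27.8 in NTGa and 28.1 in NTGb, and 267 to 279 and 248 to 296 microRNAs were detected.

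The SD of the miR-210 level ran from 0.211 in NTGb to 1.11 in NTGa. Its residual SD over the 4 groups was 0.72 on the log2 scale, against a median of 0.64 over 52 assays of card A with a mean Ct of 30 to 33. Its neighbours in Ct order, miR-345-5p and miR-337-3p, had 0.63 and 0.70. Card B holds pairs of wells, and 257 pairs with a mean Ct in the range of miR-210 differed by a median of 0.495 cycles. The Ct of NTGa replicate 3 exceeded that of the next NTGa mouse by 1.65 cycles, and 5.84% of those well pairs lay farther apart than that. With 1 well per mouse, error of the well and difference between mice cannot be told apart for miR-210.

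Other microRNAs reported to respond to low oxygen in cultured cells gave a comparison for miR-210. They were listed without a direction of response, so the sign of a change was not read as such a response. Of 17 on the list, 14 were tested. miR-23a and miR-199a-5p were detected in 7 and 5 of 12 mice and did not enter the test, and miR-181b was not analysed here. In MCK-PPARa, limma called 0 of 14, and 4 had an unadjusted p under 0.05 (1 higher and 3 lower), where 16.4% of all tested microRNAs did (7.46% higher and 8.96% lower). The median change of the list was 0.20 with 10 of 14 positive, against 0.12 and 58.6% positive over all tested microRNAs. Those 4 are shown with their seeds, none of which is that of miR-210.
miR-20b-5p, chrX:52742159-52742181: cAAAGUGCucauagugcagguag
miR-181c-5p, chr8:84178924-84178945: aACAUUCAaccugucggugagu
miR-26b-5p, chr1:74394324-74394344: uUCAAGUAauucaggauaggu
miR-322-5p, chrX:53054306-53054327: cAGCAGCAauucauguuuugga
miR-20b, a member of the miR-17 seed family, had levels of -1.93, -0.39 and -0.20 in NTGa and -2.96, -2.54 and -2.71 in MCK-PPARa, without overlap, as 25.7% of all tested microRNAs had none. Its log2 change was -1.90 (SE 0.51, limma adjusted p = 0.0908). It was called without NTGa replicate 1 (-2.44, adjusted p = 0.018) and without MCK-PPARb replicate 1 (adjusted p = 0.0391). These are values of the mouse assay. The rat assay, rno-miR-20b-5p on card B, gave -0.18 (limma adjusted p = 0.868), so the size of the fall depended on the assay. miR-181c, of the miR-181 family, had a value of -1.07 (adjusted p = 0.16; 0.0391 without MCK-PPARb replicate 1), with 1 MCK-PPARa mouse, at Ct 34.7, set to the floor of -6.56 that follows from the limit of Ct 35. miR-26b had -0.69 (adjusted p = 0.252) and miR-322, the mouse counterpart of human miR-424, had 1.00 (adjusted p = 0.289).

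In MCK-PPARb, limma again called 0 of the 14, and 1 had an unadjusted p under 0.05 and was higher, where 5.22% of all tested microRNAs were. That was miR-23b, encoded beside miR-27b and miR-24-1, with levels of -0.86, -1.11 and -0.70 in NTGb and 0.019, -0.48 and -0.32 in MCK-PPARb. The groups did not overlap, as in 15.3% of all tested microRNAs. Its log2 difference was 0.63 (SE 0.22, adjusted p = 0.49). The median of the list was 0.26 with 10 of 14 positive, against 0.016 and 51.1% over all tested microRNAs. Values of miR-210 and miR-155 were positive in MCK-PPARa (0.76 and 0.24) and negative in MCK-PPARb (-0.39 and -0.19), and none of these passed. Between NTGa and NTGb, limma called 0 of the 14 and 0 had an unadjusted p under 0.05, where 15.7% of all tested microRNAs did; the median was 0.11 against -0.034 over all.

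**Figure D3:**
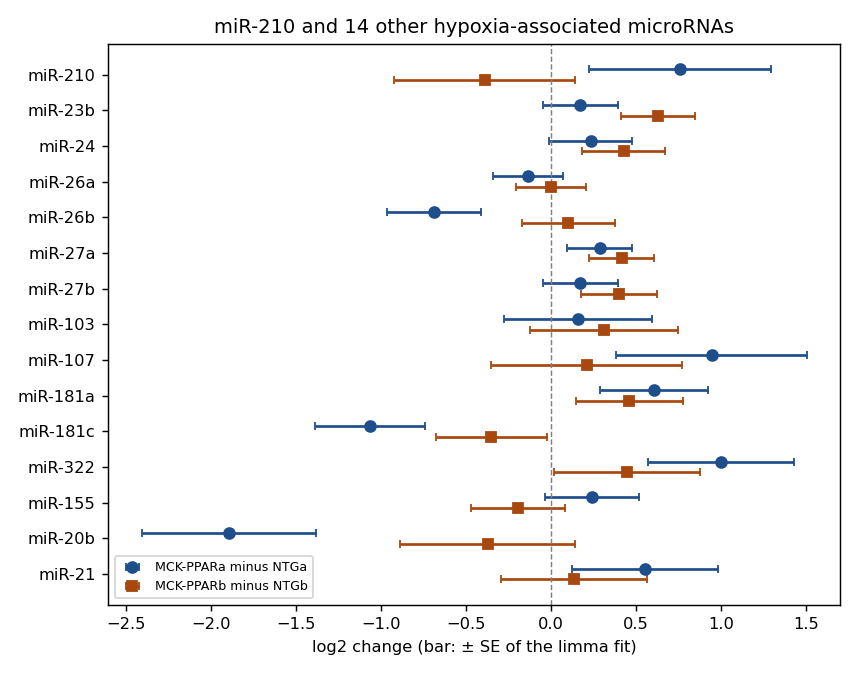
Log2 change of miR-210 and of the 14 tested hypoxia-associated microRNAs in MCK-PPARa minus NTGa (blue circles) and MCK-PPARb minus NTGb (orange squares), with the SE of the limma fit as bar. The values lie between -1.90 (miR-20b) and 1.00 (miR-322), both in MCK-PPARa, and no point passed after adjustment.

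MicroRNAs reported to act on mitochondrial genes or their regulators were examined as a second list, and all 11 were tested. In MCK-PPARa, 1 of 11 passed and it fell, where 2.24% of all tested microRNAs passed. This was miR-499, from an intron of the slow myosin gene Myh7b, with levels of -0.17, -0.35 and -0.17 in NTGa and -3.99, -4.26 and -3.42 in MCK-PPARa (log2 change -3.66, SE 0.30, limma adjusted p = 3.94e-05). miR-499 thus lay above miR-210 on the log2 scale in NTGa and close to it in MCK-PPARa, as far as levels of different assays can be compared. 2 others were lower at an unadjusted p under 0.05, where 8.96% of all tested microRNAs were. They were miR-181c, given above, and miR-195, of the miR-15 and miR-16 seed family, at -0.67 (adjusted p = 0.256). The median was -0.27, against 0.12 over all tested microRNAs. In MCK-PPARb, limma called 0 of 11 and 0 had an unadjusted p under 0.05, where 0% and 8.58% of all tested microRNAs did, with miR-195 at -0.49 and miR-16 at -0.61 (adjusted p = 0.559 and 0.609).

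The microRNAs whose pattern was most like that of miR-210 were sought by the root mean square difference between levels, each centred on its own mean over the 12 mice. It was measured for the 207 other microRNAs detected in every mouse and had a median of 0.99. The measure is not scaled for spread, so an assay that hardly varies can also score below that median. miR-19b, with an SD of 0.085 over the mice against 0.93 for miR-210, scored 0.90. The 5 smallest values were 0.62 for miR-125b*, 0.62 for miR-489, 0.63 for rno-miR-339-3p, 0.66 for miR-206 and 0.66 for miR-193b. This is a description of these 12 mice, whose values share the RNA and, within a card, the reference. Since they were chosen for their likeness over the same mice, their group values are a description with no test. The log2 difference between NTGa and NTGb was -0.79 (miR-125b*), -0.74 (miR-489), -1.89 (rno-miR-339-3p), -0.67 (miR-206) and -1.14 (miR-193b). Assays of the same name from the other species gave smaller differences, of -0.13 (rno-miR-125b*), -0.11 (rno-miR-489) and -0.73 (mmu-miR-339-3p). In NTGa replicate 3, miR-210 stood at -2.20 from its own mean, and the 5 stood between -0.98 and -0.51 from theirs.

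**Figure D4:**
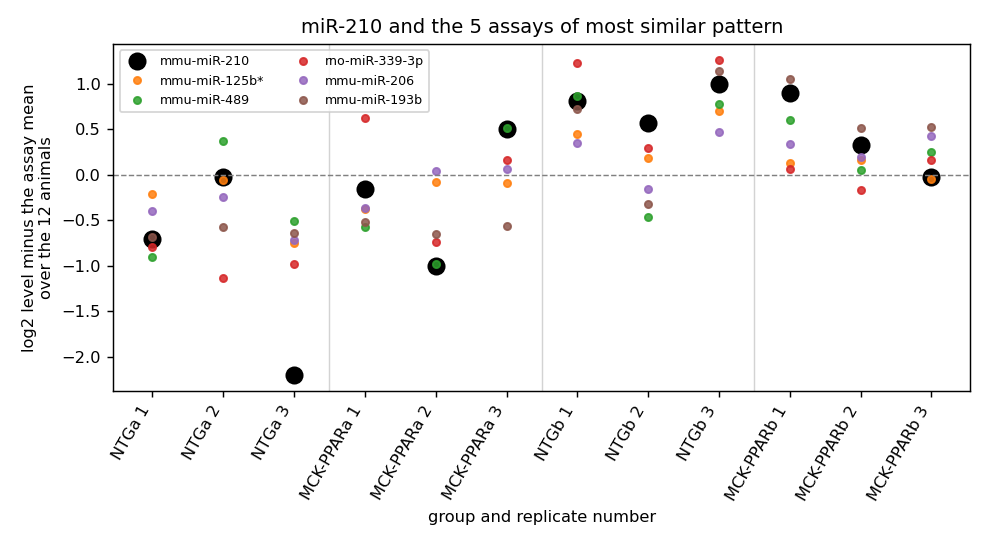
Log2 level minus the assay's mean over the 12 mice (y axis) for miR-210 (black) and the 5 microRNAs of most similar pattern, by group and replicate number. The points of miR-210 are lowest in NTGa replicate 3, and no other assay shown goes as low there.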

How the data were processed

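Soleus RNA of 12 mice was run on 2 TaqMan cards, so 24 deposited samples were 12 animals. The authors deposited raw Ct values per well, per the file headers, which carry the unit score here; blank cells stand for wells without a Ct. Per the labels' protocols, 40 cycles were run on an Applied Biosystems 7900HT. No source used here gives the software, threshold or baseline. Precision is limited by the number of animals and wells.

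Where an assay had several wells, their Ct values were averaged, blanks counting as Ct 40 if any other well gave a value. Levels were scaled per card to the microRNAs detected in all 12 animals (149 and 59). Values not detected were set to a floor of -6.56 (card A) or -5.66 (card B), as was any lower value. The test covered the 268 assays (180 and 88) that 1 group or more had at a Ct under 35 in each of its 3 animals. limma 3.58.1 in R 4.3.3 was fitted over the 4 groups with 8 residual degrees of freedom, and p-values were adjusted by Benjamini-Hochberg over the 268 at a threshold of 0.05. P-values are two-sided. The fit was tested on simulated data. Alternatives were other references, quantile normalization, other detection limits and filters, animal weights, replicate blocks and leaving out each animal.

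Named were all tested members of the hypoxia list, up to 4 mitochondrial list members of lowest p, the 5 most similar assays and the neighbours in Ct. miR-210 and the lists were chosen with earlier results of these data known. Whether replicates came from separate animals rests on the label "biological".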

Additional observations from a re-analysis of the deposited data

How the results depend on the processing

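miR-210 was called in 0 of the alternatives run for its 6 planned comparisons. Leaving out 1 animal gave log2 values of 0.11 to 1.23 for MCK-PPARa against NTGa, -0.63 to -0.18 for MCK-PPARb against NTGb, 0.49 to 1.62 for their difference, -0.14 to 0.42 for their mean, -2.24 to -1.11 for NTGa against NTGb and -0.97 to -0.23 for MCK-PPARa against MCK-PPARb. The mean of the effects also turned negative with quantile normalization (-0.082) and at a limit of Ct 32 (-0.079). With the other control group the transgene values were -1.01 and 1.38, and with all 6 controls -0.13 and 0.49. U6 snRNA as reference moved the median of all microRNAs between NTGa and NTGb from -0.034 to 0.49, calls from 5 to 29, and miR-210 to -1.22. With U6, 2 hypoxia-associated and 1 mitochondria-associated microRNA were called between the controls. In MCK-PPARa, leaving out 1 animal gave 0 to 2 and 1 to 2 calls in these lists, and 4 to 12 over all microRNAs, with 12 without MCK-PPARb replicate 1. Same-numbered animals of a line had correlations of their deviations from -0.29 to 0.22, so the numbers were not taken as pairs. A replicate block across the 4 groups left miR-210 at 0.76 (adjusted p = 0.592), -0.39 (0.868) and -1.77 (0.216), and gave 1 hypoxia-associated call in MCK-PPARa (miR-20b, adjusted p = 0.026); a block within each line gave 0. The causes were not tested.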
